A study of Rattus norvegicus with 12 samples.

Results

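The mature microRNAs of control hippocampal cultures are described here from 3 small RNA libraries. All libraries of the control small RNA group were used, 3 of the 6 small RNA libraries and of the 12 polyA and small RNA libraries available. The cultures were neuron-enriched hippocampal primary cultures from Sprague-Dawley rats at embryonic day 18. They received vehicle at 18 days in vitro (DIV) for 48 h, with RNA extracted at 20 DIV; the other arm of the study, cultures given the GABA-A receptor blocker picrotoxin, was not used. The labels call the 3 libraries biological replicates and number them 3, 10 and 20, without saying what the numbers mark. Replicate 3 held 9658108 microRNA counts, replicate 10 held 8654771 and replicate 20 held 10009140. Together they listed 535 mature microRNA names, all but 25 listed in 1 library and 23 listed in 2 were listed in every library. Replicate 3 stood somewhat apart from the others, and values that rest on it are also given without it.

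A microRNA is cut from a hairpin in a longer transcript, first by Drosha in the nucleus and then by Dicer in the cytoplasm. The resulting duplex has a strand from each side of the hairpin, named 5p and 3p, and an Argonaute protein usually keeps one of them. The bases next to its 5′ end, the seed, pair with target mRNAs, so that microRNAs with the same seed share many predicted targets. In the brain, miR-9 and miR-124 are known for their roles in neurogenesis and neuronal identity, miR-128 for restraining neuronal excitability, and the let-7 family for marking differentiated cells.

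The sequences below are those of the microRNAs that carried most of the counts, shown because they fix which seeds dominated these cultures. They are written 5′ to 3′ from RefSeq (rat build GRCr8), with the seed, bases 2 to 8, in capitals. Of the 535 names, 482 had a sequence there, and these held 90.5% of the counts. Levels are in CPM, counts per 1000000 microRNA counts of the library. The 8 names of 1000 CPM or more without an entry included miR-99a-5p, miR-124-3p and miR-30d-5p. The first group has seeds that no other name with a sequence shared.
miR-9a-5p: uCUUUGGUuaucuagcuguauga
miR-128-3p: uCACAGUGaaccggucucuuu
miR-218a-5p: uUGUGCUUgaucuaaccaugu
miR-127-3p: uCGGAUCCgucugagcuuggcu

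The next sequences belong to families, in which several names had the same seed. The 8 names of the let-7 family come first.
let-7f-5p: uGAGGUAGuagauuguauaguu
let-7i-5p: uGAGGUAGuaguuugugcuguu
let-7c-5p: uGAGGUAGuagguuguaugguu
let-7a-5p: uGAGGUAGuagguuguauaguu
let-7b-5p: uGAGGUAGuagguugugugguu
let-7d-5p: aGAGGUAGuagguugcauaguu
let-7e-5p: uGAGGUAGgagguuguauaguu
miR-98-5p: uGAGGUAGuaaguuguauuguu
miR-125b-5p: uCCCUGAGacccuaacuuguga
miR-125a-5p: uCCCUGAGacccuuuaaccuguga
miR-7a-5p: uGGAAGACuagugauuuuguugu
miR-7b: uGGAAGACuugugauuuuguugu
miR-181a-5p: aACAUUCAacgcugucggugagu
miR-181b-5p: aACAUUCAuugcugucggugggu
miR-103-3p: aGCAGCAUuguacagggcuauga
miR-107-3p: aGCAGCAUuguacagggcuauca
miR-100-5p: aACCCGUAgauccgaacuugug
miR-99b-5p: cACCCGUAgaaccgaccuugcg
miR-29a-3p: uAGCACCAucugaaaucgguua
miR-101a-3p: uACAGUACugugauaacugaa

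A few microRNAs held most of the counts. Levels, whether CPM or a percent of the microRNA counts in the library, are shares: a higher share of one name lowers the others. miR-9a-5p took 19.3% of the counts in replicate 3, 17.3% in replicate 10 and 18.0% in replicate 20, 18.2% ± 1.00 (SD, n = 3). It ranked highest in each library. miR-128-3p took 9.47%, 14.1% and 15.8% in the same order, 13.1% ± 3.26 (SD, n = 3), and was the second most abundant name in each library. Replicate 3 was the low library for miR-128-3p, with a share 1.66-fold under that of replicate 20. Without it, miR-128-3p averaged 149305 CPM in place of 131092. Together these names held 31.3% ± 2.50 of all counts (SD, n = 3).

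**Figure D1:**
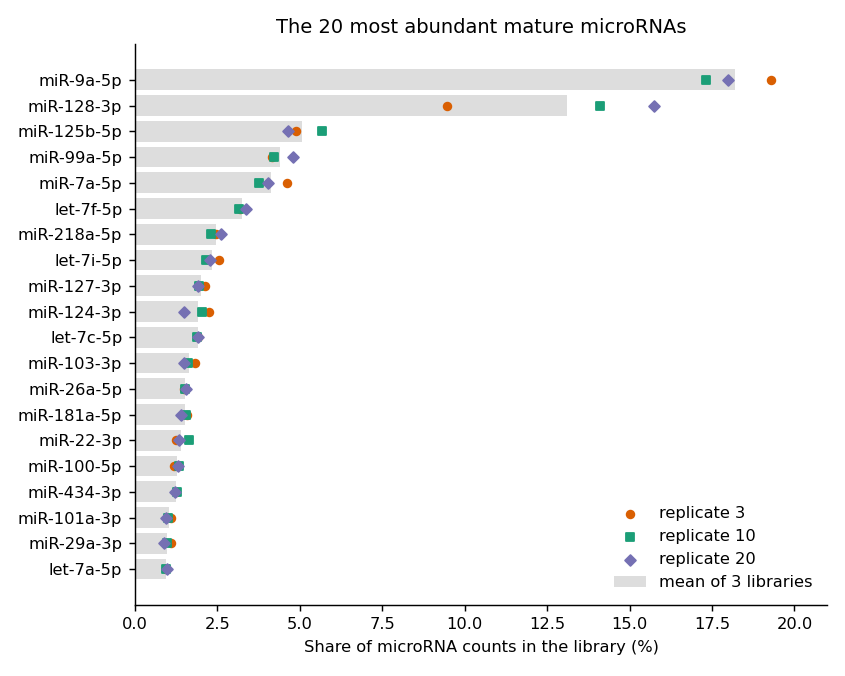
Share of microRNA counts (%) of the 20 most abundant mature microRNAs; grey bars are means of 3 control libraries and coloured points are the single libraries. miR-9a-5p (18.2%) and miR-128-3p (13.1%) stand above all others, and miR-128-3p has its low point in replicate 3.

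The next 3 places were close together. miR-125b-5p had 48720, 56814 and 46262 CPM in replicates 3, 10 and 20, with replicate 10 the highest. miR-99a-5p had 41662, 42113 and 47865 CPM, with replicate 20 the highest. miR-7a-5p, which is bound by the circular RNA Cdr1as in brain, had 46125, 37699 and 40256 CPM, with replicate 3 the highest. The 3 names thus overlapped across the libraries, and their order was not the same in each. let-7f-5p followed with 32341 ± 1096 CPM, then miR-218a-5p with 24600 ± 1524 CPM and let-7i-5p with 23309 ± 1974 CPM (SD, n = 3). The neighbours miR-218a-5p and let-7i-5p differed by less than the spread of either.

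The remaining names among the 20 most abundant lay between 9454 and 19884 CPM. miR-127-3p, from the imprinted Dlk1-Dio3 region, had 19884 ± 1069 CPM (SD, n = 3). miR-124-3p, the neuronal microRNA best known for repressing non-neuronal mRNAs, had 22346, 20401 and 14815 CPM in replicates 3, 10 and 20. Its value in replicate 20 lay below both others. let-7c-5p had 18997 ± 205 CPM and miR-26a-5p 15064 ± 338 CPM (SD, n = 3), so that the libraries nearly coincided when scaled by their totals. The others were miR-103-3p, miR-181a-5p, miR-22-3p, miR-100-5p, miR-434-3p, miR-101a-3p, miR-29a-3p and let-7a-5p, in falling order. The same 20 names led each library.

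The 10 most abundant names held 57.0% ± 2.17 of the counts, the 20 most abundant 70.2% ± 1.67 and the 100 most abundant 95.7% ± 0.423 (SD, n = 3). By their mean share, 7 names held 50% of the counts and 62 held 90%. Replicate 3 was the least concentrated library: 65 names held 90% of its counts, against 61 in replicate 10 and 58 in replicate 20. By level, 18 names had 10000 CPM or more and held 68.3% of the counts, and 71 names between 1000 and 10000 CPM held 26.4%. The 179 names under 10 CPM, most of the tail, held 0.0369% in all. The tables list no count under 2, so a name that a library does not list may have had a single read there. Names listed in 1 library numbered 25, none with more than 9 counts.

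**Figure D2:**
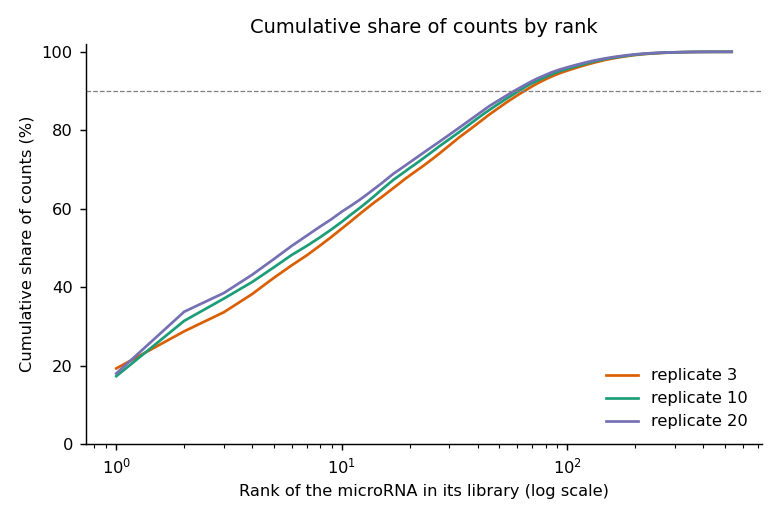
Cumulative share of counts (%) against the rank of the microRNA in its own library (log scale), with a line for each of the 3 control libraries; the dashed line marks 90%. The lines start between 17.3% and 19.3% and cross 90% at 65, 61 and 58 names in replicates 3, 10 and 20.

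Ordered by seed, 482 names had 401 seeds, and 53 seeds were shared by 2 or more listed names. These 53 shared seeds covered 36.9% of the counts. The seeds of highest share, those of miR-9a-5p and miR-128-3p, were each held by a single name with a sequence. The shared seed of highest share was GAGGUAG of the let-7 family, whose 8 names had 10.3%, 9.91% and 10.2% in replicates 3, 10 and 20, 10.1% ± 0.194 (SD, n = 3). By library total, the CV of single names ran from 1.08% for let-7c-5p to 8.47% for let-7i-5p and 13.3% for miR-98-5p. Within the family, let-7f-5p led and miR-98-5p, 1601 ± 213 CPM, was lowest (SD, n = 3). Bases 2 to 7 as the seed gave the same 10.1%.

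The seed CCCUGAG of miR-125 had 5.76% ± 0.599 of the counts (SD, n = 3), almost all of it from miR-125b-5p, while miR-125a-5p had 6999 CPM and miR-351-5p, which shares the seed, had 11.9 CPM. GGAAGAC of the miR-7 family had 4.69% ± 0.476 (SD, n = 3), with miR-7b at 5580 CPM beside 41360 CPM for miR-7a-5p. Both families were thus led by a single name. ACAUUCA of the miR-181 family had 2.12% ± 0.149 over 4 names (SD, n = 3), from 15020 CPM for miR-181a-5p to 841.8 CPM for miR-181d-5p. GCAGCAU of miR-103-3p and miR-107-3p, whose hairpins lie in genes of pantothenate kinases in mammals, had 1.96% ± 0.206 (SD, n = 3). GUAAACA of the miR-30 family, with miR-384-5p, had 1.89%. miR-30d-5p, the most abundant name of the miR-30 list with 8375 ± 331 CPM (SD, n = 3), and miR-30b-5p, 382.5 CPM, are not in that sum.

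The lists by name add arms and members without a RefSeq entry. miR-99a, miR-99b and miR-100 had 6.21% ± 0.367 of the counts over 6 names, of which miR-99a-5p gave 70.7% (SD, n = 3). miR-124 had 1.94% ± 0.393 and miR-129, the microRNA of the study's title, 1.18% ± 0.129 (SD, n = 3). miR-29, known for repressing collagens and, in mature neurons, proapoptotic BH3-only genes, had 1.51% ± 0.137 (SD, n = 3), led by miR-29a-3p and then miR-29b-3p at 4842 CPM. miR-34, whose genes p53 activates, and miR-449, a microRNA of ciliated cells, were low at 360.3 ± 37.0 CPM over 6 names, 72.3% of it from miR-34c-5p (SD, n = 3). miR-132 and miR-212, which CREB induces, had 8355 ± 239 CPM (SD, n = 3).

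Names that differ by 1 base or less can take each other's reads, so their split is uncertain. Among names with a sequence, 21 pairs differed by at most 1 mismatch, and 36 names were in such pairs. They include let-7f-5p and let-7a-5p, let-7c-5p and let-7b-5p, miR-7a-5p and miR-7b, miR-103-3p and miR-107-3p, and miR-101a-3p and miR-101b-3p. let-7a-1-3p and let-7c-2-3p have the same mature sequence and were listed with the same 2239, 2006 and 2283 counts in replicates 3, 10 and 20. The same reads therefore stand under both names. The RefSeq entry of miR-129-1-3p, 19 bases long, equals the start of miR-129-2-3p.
let-7a-1-3p: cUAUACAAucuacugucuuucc
let-7c-2-3p: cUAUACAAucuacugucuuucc
miR-129-1-3p: aAGCCCUUaccccaaaaag
miR-129-2-3p: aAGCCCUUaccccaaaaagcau

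On the genome, 10 of the 20 most abundant names have a single hairpin in the RefSeq table, 8 have several and 2 have no entry. For a name with several, a count of the mature form does not say which hairpin gave it. A single entry may also be incomplete: miR-125b-5p is entered under Mir125b2 alone, although the hairpin Mir125b1 is there with miR-125b-1-3p. miR-9a-5p has 3 hairpins in GRCr8: Mir9-1 at chr2:175974971-175975059 (+), Mir9-2 at chr2:15933292-15933378 (+) and Mir9-3 at chr1:142849400-142849489 (+). Mir9-3 lies inside the noncoding gene Mir9-3hg on the same strand. miR-128-3p has 2 hairpins: Mir128-1 at chr13:42251884-42251965 (+) inside R3hdm1, and Mir128-2 at chr8:120963795-120963878 (-) inside Arpp21, which encodes a cAMP-regulated phosphoprotein of striatum and cortex. The 5p arms tell these hairpins apart. miR-128-2-5p had 26.1, 44.6 and 35.8 CPM in replicates 3, 10 and 20, and miR-128-1-5p had 22.5, 14.6 and 12.8 CPM. miR-128-2-5p was the higher in each library, and it had its lowest value in replicate 3, as the mature 3p form did, whereas miR-128-1-5p had its highest there. The match stopped there: miR-128-2-5p was highest in replicate 10 and miR-128-3p in replicate 20.

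Other abundant names also lie in protein-coding genes of the same strand by the GRCr8 annotation. Mir7-1 lies in Hnrnpk, Mir218-2 in the axon guidance gene Slit3, Mir103a2 in Pank2 and Mir26a in Ctdspl. Hairpins inside a protein-coding gene of the same strand numbered 113 with 36.0% of the counts, and 74 inside a long noncoding gene had 33.8%. Another 111 in neither had 17.3%, and 22 with a gene on the opposite strand alone had 3.39%. The counts of a name with several hairpins were split evenly over them, and exons and introns were not told apart. Names without an entry are in none of these classes.

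Hairpins within 10 kb of each other on a strand were taken as a cluster. The 54 clusters of 2 or more hairpins held 188 hairpins and 32.2% of the counts, while 153 hairpins that stood alone held 58.3%. Names without an entry, 9.48% of the counts, are in neither share. The cluster Mir99a to Mirlet7c1, with 0.953%, is thus counted without miR-99a-5p. The cluster of highest share was Mir379 to Mir410 on chr6:134543445-134579838 (+), part of the imprinted Dlk1-Dio3 region that is transcribed from the maternal chromosome. Its 34 hairpins and 64 names had 6.69%, 6.33% and 5.93% of the counts in replicates 3, 10 and 20, 6.32% ± 0.379 (SD, n = 3). Upstream on the same strand, the 11 hairpins from Mir770 to Mir136 on chr6:134298084-134331416 (+) had 5.09% ± 0.161 (SD, n = 3). With a gap of 3 kb the Mir379 to Mir410 group falls apart and the cluster of highest share, 4.84%, is the one with miR-127. Taken by name and not by position, both imprinted lists together had 83 names and 11.6% ± 0.550 of the counts, 47 names with 100 CPM or more and 24 with 1000 or more (SD, n = 3). These lists lack miR-409a, miR-299a and miR-341 of the same region, so they understate its share and its numbers of names. Of those left out, miR-341 had 8243 CPM and miR-409a-3p had 2216 CPM.

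Hairpins of these clusters differed widely in level although they lie close together. In the Mir379 to Mir410 cluster the level per hairpin, its matched names summed, ran from 8129 CPM for Mir323 to 21.6 CPM for Mir377, a ratio of 376.4. The median hairpin had 1149 CPM, 17 of 34 had 1000 CPM or more, and 5 were under 100 CPM. Mir381 had 8042, 7368 and 7421 CPM in replicates 3, 10 and 20, and Mir379, the first of the row, had 7378, 6537 and 5935 CPM. High and low hairpins stood next to each other along the row: Mir323 with 8129 CPM stood between Mir380 with 915.0 CPM and Mir758 with 85.6 CPM. Mir134, known for limiting dendritic spine size through Limk1, had 1680 ± 319 CPM (SD, n = 3). The higher arm was 3p in 23 of the 34 hairpins and 5p in 8; the other 3 had names without an arm.

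The Mir770 to Mir136 cluster was more uneven. Mir127 had 21117, 19327 and 19209 CPM in replicates 3, 10 and 20, its neighbour Mir434 had 14897, 15444 and 14711 CPM, and Mir433 had 7213, 8085 and 7220 CPM. Mir136 had 5897 ± 584 CPM (SD, n = 3). These last 4 hairpins and Mir770 were the ones over 1000 CPM, and the 5 highest hairpins held 97.7% of the cluster. Mir673 was lowest at 41.9 CPM, 475-fold under Mir127. miR-127-5p, 2310 CPM, and miR-136-5p, 2199 CPM, are not in these sums because they had no RefSeq entry.

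**Figure D3:**
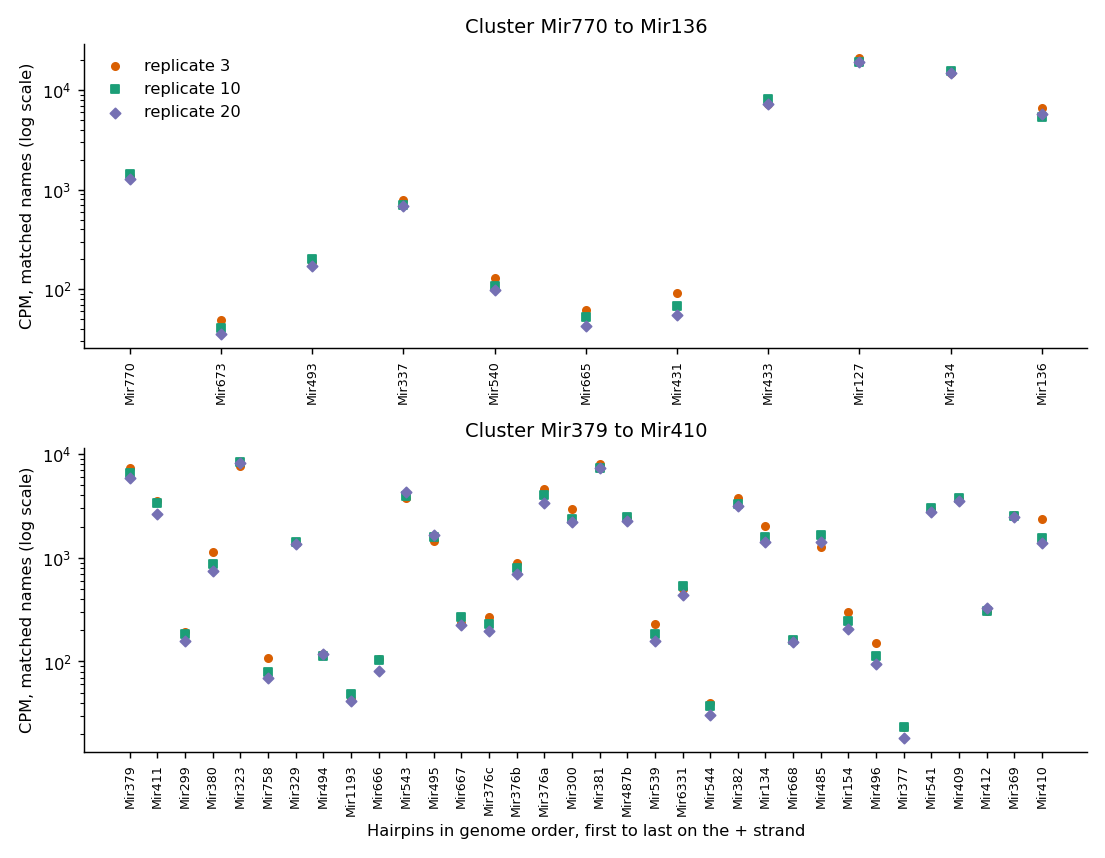
Level of each hairpin (CPM of its names with a RefSeq entry, log scale) along the Mir770 to Mir136 and Mir379 to Mir410 clusters in genome order, with 3 points for the 3 control libraries, some hidden under each other. Levels run from 21.6 CPM (Mir377) to 19884 CPM (Mir127), a range far wider than the distance between the libraries of any hairpin.

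Smaller clusters ranged from even to uneven. In the 13 other clusters whose names each have a single locus and whose highest hairpin had 100 CPM or more, the highest hairpin exceeded the lowest by a median of 3.60-fold, and by 100-fold or more in 2. Mir25, Mir93 and Mir106b, paralogs of the miR-17-92 cluster, lay within 1.27-fold of each other and Mir296 and Mir298 within 1.32-fold. These were the 2 clusters within 2-fold. Mir132 exceeded Mir212 by 2.92-fold and Mir221 exceeded Mir222 by 3.60-fold, while Mir191 exceeded Mir425 by 21.3-fold. Of the let-7 clusters, Mirlet7a1 to Mirlet7d on chr17:16320133-16322357 (+) had 2.70% ± 0.0610 of the counts (SD, n = 3).

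In hairpins with both arms listed, 1 arm usually outnumbered the other by far. Both arms were listed for 200 hairpins, and 185 had a sum of 100 or more mean counts over both arms; hairpins of the same name were combined. The 5p arm was higher in 97 and the 3p arm in 88, so neither side dominated: the median log2 of 5p over 3p was 0.43, which is the value of miR-129. The higher arm exceeded the lower by a median of 29.4-fold, which is the value of miR-9a. It exceeded it by 10-fold or more in 119 hairpins, 100-fold or more in 60 and 1000-fold or more in 18. The arms were within 2-fold of each other in 16 hairpins. Over all names, those ending in 5p had 61.2% of the counts, those ending in 3p 36.8% and those without an arm 1.99%.

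**Figure D4:**
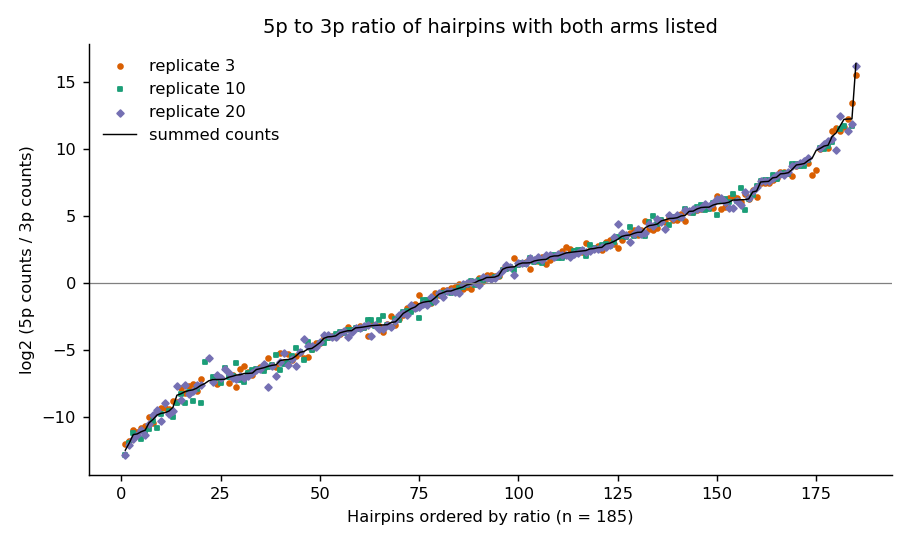
log2 of 5p counts over 3p counts for 185 hairpins ordered by the ratio; points are the 3 control libraries and the line is the summed counts. The line runs from -12.47 (miR-101a) to 16.38 (miR-26a), and the libraries lie close together except at the ends, where the lower arm has few counts.

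The hairpin with the highest 5p share was miR-26a, with 142193, 130427 and 154121 counts of 5p beside 3, 0 and 2 of 3p in replicates 3, 10 and 20. With so few 3p counts the ratio over all libraries, 85348, has a 95% exact binomial interval from 36572 to 262856. Such intervals cover counting error alone, and reads without molecular identifiers are not independent molecules. miR-21, an abundant microRNA of glia and of dividing cells, followed with 58438 counts of 5p and 12 of 3p, then miR-186, miR-181d, miR-100, miR-16, miR-20a and miR-99a. miR-100 had 12793 CPM of 5p and 3.83 CPM of 3p, with 3381-fold more 5p counts (interval 2798 to 4126).

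At the other end, miR-101a had 26, 12 and 13 counts of 5p beside 106005, 87514 and 95471 of 3p in replicates 3, 10 and 20. The 3p arm was 5666-fold higher (interval 4310 to 7611). miR-107, miR-128, miR-29a, miR-344a, miR-381, miR-222 and miR-92a followed. miR-128 had 469, 512 and 486 counts of 5p, nearly level across the libraries, beside 914276, 1220863 and 1576923 of 3p. Its log2 of 5p over 3p was -10.93, -11.22 and -11.66, so the arms did not vary in step. miR-29a had a 3p arm 2441-fold higher (interval 2030 to 2962).

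Among hairpins with a sum of 1000 or more, the arms were nearest to equal in miR-369, miR-338, miR-540, miR-361, miR-329 and miR-129. miR-369, of the Mir379 to Mir410 cluster, had 10731, 11551 and 12629 counts of 5p beside 14332, 10364 and 12013 of 3p. The 3p arm was higher in replicate 3 and the 5p arm in replicates 10 and 20. miR-338, miR-540 and miR-345 also had a different higher arm in different libraries, and no other of the 185 hairpins did. The library that differed was replicate 20 for miR-338 and miR-540 and replicate 10 for miR-345. These 2 arms of miR-369 start with different seeds.
miR-369-5p: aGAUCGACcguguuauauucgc
miR-369-3p: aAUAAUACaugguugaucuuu

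The study's title names miR-129-5p. miR-129-5p had 8013, 6201 and 6077 CPM in replicates 3, 10 and 20, 6764 ± 1084 CPM (SD, n = 3), rank 28 of 535. Replicate 3 was above the others. miR-129-2-3p had 4909, 4663 and 4380 CPM, rank 41, and miR-129-1-3p had 356.5, 379.2 and 424.0 CPM. The arms were thus of like size: 5p counts exceeded the sum of both 3p names by 1.35-fold (interval 1.34 to 1.36). Whether some reads stand under both 3p names was not tested. The sum would then be too high, and the interval does not cover this. The log2 of 5p over 3p was 0.61, 0.30 and 0.34 in replicates 3, 10 and 20, above 0 in each.
miR-129-5p: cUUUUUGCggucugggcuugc

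miR-9a and the CREB-induced pair show the middle of the range. miR-9a had 29.4-fold more 5p than 3p, yet miR-9a-3p, 7470, 5742 and 5338 CPM, still ranked 31. miR-132 was higher in its 3p arm by 2.53-fold, and its neighbour miR-212 was higher in its 5p arm by 3.90-fold. The higher arms of these 2 neighbouring hairpins were thus on opposite sides. For 104 hairpins with 100 or more counts of each arm in every library, the SD of the log2 ratio over the libraries had a median of 0.16 and reached 0.67. The ratios thus spread over a far wider range between hairpins than between libraries.

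The higher and lower arms differed in their first base. Of 146 hairpins of which both arms had a sequence and a single name, the higher arm began with U in 74 (50.7%) and the lower arm in 23 (15.8%). Where the higher arm led by 10-fold or more, U came first in 51 of 93 higher arms and 11 of 93 lower arms; under 10-fold it was 23 and 12 of 53. The lower arm began with C in 46 of 146, against 20 of the higher. Argonaute proteins are known to favour a U at this place. Over all 482 names with a sequence, 176 (36.5%) began with U, and these held 78.1% of the counts of names with a sequence. Without miR-9a-5p and miR-128-3p that share was 66.6%. U came first in 41 of 81 names of 1000 CPM or more and in 39 of 159 names under 10 CPM.

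The labelled cell type was checked against lists of microRNAs known as markers of cell types, some of which stand in more than 1 list. All 16 names of the neuronal list were listed in every library, the lowest, miR-383-5p, at 181.8 ± 35.7 CPM (SD, n = 3), and together held 43.2%, 44.1% and 46.2% of the counts. miR-9a-5p and miR-128-3p made up 70.4% of that sum, and the other 14 names held 13.2% of the counts. miR-137-3p, miR-138-5p and miR-134-5p of that list, which act at synapses and dendritic spines, had 3655, 2668 and 1671 CPM. The list for astrocytes and reactive glia had 5.89% ± 0.262 (SD, n = 3). Most of this came from miR-26a-5p, miR-181a-5p, miR-22-3p and miR-29a-3p, which neurons express as well. miR-21-5p had 2063 ± 187 CPM, whereas miR-143-3p had 35.9 CPM and miR-223-3p was not listed (SD, n = 3). How much of the levels of either list came from neurons and how much from glia was not tested, so the shares do not measure cell content.

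Markers of other cells were low. The oligodendrocyte list summed to 219.5, 225.5 and 208.4 CPM in replicates 3, 10 and 20. Its members were miR-338-3p at 86.6 CPM, miR-338-5p at 78.6, miR-32-5p at 34.7, miR-219a-5p at 16.0 and miR-219a-2-3p at 2.03 CPM. The list for microglia and blood summed to 18.5, 11.1 and 9.59 CPM, and miR-223-3p, miR-144-3p and miR-486 of it were not listed. miR-155-5p and miR-146a-5p gave nearly all of that sum, 6.54 and 5.67 CPM. miR-126a-3p, the endothelial microRNA, had 180.6 ± 15.1 CPM (SD, n = 3). The pluripotent list had 1 of 7 names listed, miR-293-5p, in 2 libraries at 0.414 and 0.231 CPM. The muscle microRNAs miR-1-3p and miR-499-5p stood out with 192.8 ± 3.73 and 189.1 ± 11.2 CPM, while miR-133a-3p, which shares a transcript with miR-1, had 20.4 ± 4.52 CPM (SD, n = 3). The liver microRNA miR-122-5p had 27.4, 30.3 and 30.1 CPM, level across the libraries, and miR-375-3p had 13.1 CPM.

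The libraries agreed closely in the order of levels and less closely in their sizes. Over 356 names of 10 CPM or more, Pearson's r of log2 CPM was 0.9955 for replicates 3 and 10, 0.9949 for 3 and 20, and 0.9985 for 10 and 20; this is across microRNAs, which are not independent replicates. The coefficient of variation (CV, SD over mean) of the 3 libraries had a median of 12.1%, against a median of 2.36% that counting alone would give at these depths. The CV was above its counting value in 335 of 356 names, at most 10% in 138 and over 30% in 22. The common biological coefficient of variation, the part beyond counting that edgeR estimates over all these names, was 15.5%. Without replicate 3 it was 9.17%, and the median CV was 6.98%. The median CV of a pair of libraries tends to lie below that of 3 at the same spread, so part of its drop may come from that.

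**Figure D5:**
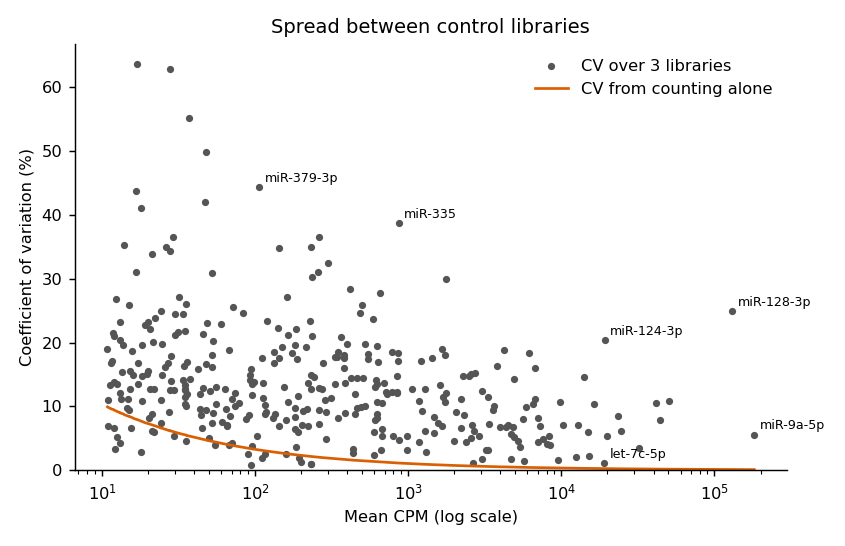
Coefficient of variation (%) over the 3 control libraries against mean CPM (log scale) for 356 microRNAs of 10 CPM or more; the line is the CV that counting alone gives. Most points lie above the line, with a median of 12.1% against 2.36%, and miR-128-3p stands out among the abundant names at 24.9%.

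Replicate 3 stood apart from the others in its correlations and in the spread without it. By share of the library, it had the highest value for 236 of the 356 names and replicate 20 the lowest for 236. The median log2 difference between them was 0.27. Replicate 10 lay between, 0.13 below replicate 3 and 0.11 above replicate 20, so this measure alone does not set replicate 3 apart. The share of miR-128-3p was low in replicate 3. The names other than miR-9a-5p and miR-128-3p held 71.2% of the counts in replicate 3, against 68.6% in replicate 10 and 66.3% in replicate 20. When the libraries were scaled by TMM, which sets the typical name level, replicate 3 was highest for 128 of 356 names and the median difference from replicate 20 was -0.01. The direction of small differences between these libraries therefore depended on the scaling. miR-128-3p did not: it was lowest in replicate 3 and highest in replicate 20 under each of 4 scalings, with a CV of 24.9% by total and 33.1% by TMM.

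Among 214 names of 100 CPM or more, the CV ran from 0.93% to 44.3%. The 10 largest belonged to miR-379-3p, miR-335, miR-374-5p, miR-3068-5p, miR-17-5p, miR-135a-5p, miR-25-3p, miR-93-5p, miR-410-3p and miR-20a-5p. All 10 were highest in replicate 3 under each of the 4 scalings; by TMM their CVs were 18.6% to 34.2%, and 6 were still among the 10 largest. miR-379-3p had 159.1, 87.2 and 71.0 CPM in replicates 3, 10 and 20, and miR-335 had 1245, 759.2 and 599.1 CPM. miR-17-5p, miR-20a-5p, miR-25-3p and miR-93-5p belong to the miR-17-92 cluster and its paralogs, which are known from dividing cells. That whole list, 23 names with these 4 among them, had 3148, 2359 and 2220 CPM in replicates 3, 10 and 20 by library total. Since the 4 names were picked by their CV, the sum is not separate evidence. The sensory cluster of miR-183, miR-96 and miR-182, low in all, had 140.5, 100.3 and 66.0 CPM by library total. By that scaling replicate 3 was highest for 236 of the 356 names of 10 CPM or more.

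The 10 smallest CVs belonged to let-7a-1-3p, let-7c-2-3p, let-7c-5p, miR-708-3p, miR-582-3p, miR-598-3p, let-7a-5p, let-7e-5p, miR-191a-5p and miR-221-5p. let-7c-5p had 19115, 18761 and 19117 CPM in replicates 3, 10 and 20, a CV of 1.08% by library total. miR-191a-5p, often used as a reference in qPCR, had 4632, 4749 and 4585 CPM, a CV of 1.81%. These small CVs held for shares of the library total. Scaled by TMM, the CV was 9.55% for let-7c-5p and 9.37% for miR-191a-5p, and the 10 names had CVs from 7.84% to 11.05% beside a median of 8.74% over the 214 names. With TMM or size factors, 0 of the 10 were still among the 10 smallest. By library total, the CV of let-7a-1-3p, let-7c-2-3p, miR-582-3p and miR-221-5p was below what counting gives.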

How the data were processed

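Small RNA was sequenced from control cultures with standard Illumina small RNA libraries, per the labels' protocols. The deposited tables hold raw counts per mature microRNA name, 1 table per library, and list no count under 2; the aligner, counter and miRBase release are not given in the sources used here. A name missing from a library was taken as 0. Counts were divided by the library total (CPM) in Python 3 with pandas; mean and SD are over 3 libraries, and no test was made since there is 1 group. At these depths 1 count is 0.0999 to 0.116 CPM.

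Sequences, hairpin positions and host genes came from RefSeq tables (GRCr8), matched by name. Arm ratios used summed counts with a 95% Clopper-Pearson interval. edgeR 4.0.16 (R 4.3.3) gave TMM factors and the common biological coefficient of variation, with an intercept as the design, and DESeq2 1.42.0 the size factors; the estimate was tested on simulated counts. The microRNAs named by rule (110) were the 20 most abundant, the 2 most abundant of each list, the extremes and near-equal cases of the arm ratio, the 10 largest and 10 smallest CVs, and miR-129; other names stand as members of the family or cluster described. The members and lists were chosen with earlier results of these data known. Alternatives were each library left out, other scalings, level and arm minimums, gaps and seeds.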

Additional observations from a re-analysis of the deposited data

How the results depend on the processing

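Shares of the leading names and the let-7 seed share moved by less than their spread, the SD over 3 libraries, under the alternatives run. For a mean of 3 libraries this is bound to hold when 1 is left out, so that alternative could not test the shares. The number of names listed or holding 90% of the counts moved by less than 1.5-fold. So did the numbers of hairpins with a higher 5p or 3p arm. The spread between libraries rested largely on replicate 3. The median CV of 12.1% ranged from 6.98% to 14.4% with each library left out, and the common biological coefficient of variation of 15.5% from 9.17% to 19.8%. With a library left out the CV is that of a pair, which tends to be smaller than that of 3. The cause of the spread was not tested. With a cluster gap of 3 kb the highest cluster share was 4.84% in place of 6.32%, by construction, since the Mir379 to Mir410 group is then divided. The median log2 of 5p over 3p was 0.79 in place of 0.43 for hairpins with a sum of 1000 counts or more; the cause was not tested. Of the 110 named microRNAs, 110 moved by less than 1 SD under TMM or size factors. With miR-9a-5p and miR-128-3p left out of the total, 103 moved, all upward, and the median over the 110 was 1.45-fold. Both outcomes follow largely by construction: TMM and size factors were set to keep the average library size, and a smaller total raises every name. Leaving out replicate 20 moved miR-16-3p and miR-186-3p by over 1.5-fold, and leaving out replicate 3 moved miR-293-5p, miR-181d-3p and miR-26a-3p, all with few counts. Names under about 10 CPM have a large counting error, though their spread exceeded it. At 1 to 10 CPM the median CV was 34.0% beside a median counting CV of 17.3%. Under 1 CPM these were 86.6% and 57.7%. No paired analysis was possible because a single group was described.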
